A study of Mus musculus with 8 samples.

Results

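Newly made RNA was compared between mouse embryonic stem cells that carried a degradable CTCF and the same line after 12 h of auxin (indole-3-acetic acid, IAA). Libraries were assigned to groups by the sample labels, and the comparison used 4 of the 8 libraries of the series, 2 of a control line without IAA and 2 of that line with IAA. It covered the 15817 genes with a mean of at least 10 normalized reads, of 16939 genes analysed. All cells were of the E14 line, carried CTCF tagged with an auxin-inducible degron (AID), and grew on gelatin in serum-free medium with LIF at 1000 U/mL, the MEK inhibitor PD0325901 at 1 µM and the GSK3 inhibitor CHIR99021 at 3 µM. The control line carried an overexpression control, and the other 4 libraries, all with 12 h of IAA, came from lines with added wild-type CTCF or added mutated CTCF. RNA was labelled for 15 min with 400 µM 4-thiouridine. No library of cells without the AID tag was analysed here, so an effect of IAA itself and an effect of losing CTCF cannot be told apart in this comparison. The labels do not say whether the line is a single clone or whether the replicates came from separate cultures.

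CTCF is a zinc-finger protein that binds a long DNA motif with a defined direction. Cohesin, the ring complex that extrudes DNA loops, stops at bound CTCF, so pairs of CTCF sites mark loop anchors and the borders of topological domains, and CTCF also binds next to many promoters. In the presence of auxin, the AID tag brings the protein to a ubiquitin ligase and the proteasome within hours. Transient transcriptome sequencing (TT-seq) captures RNA made during a short pulse of 4-thiouridine, so it reads transcription more than RNA stability, and reads fall on introns as well as exons.

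The 4 libraries held 15665474 to 21366588 reads, and the 2 libraries with IAA were the shallowest of the series (15665474 and 17181301, against 18239684 to 21551916 in the other 6). The part of depth in the results was not tested. Log2 values of the 2 replicates of a group correlated across genes at r = 0.995 to 0.996, where genes are not independent replicates. All 6 embryonic stem cell markers were listed, and their summed level was 46489 and 47212 normalized reads without IAA and 48886 and 50337 with IAA, with Tfcp2l1 higher by 0.47 on the log2 scale and Zfp42 and Esrrb lower, at -0.15 and -0.14, members named after their values were seen. Of the 7 fibroblast or feeder markers 0 were listed in the table, although 3 of 4 tested genes of a broader fibroblast list rose (Col5a1, Fn1 and Vim, by 0.69, 0.35 and 0.22 on the log2 scale, where Fn1 overlaps another gene). For 2-cell-like cells the single listed marker stayed at 6.90 normalized reads or lower in the 4 libraries. Primitive endoderm markers (4 of 7 listed, without Sox17, Sox7 and Foxa2) summed to 195 and 228 without IAA and 269 and 331 with IAA, with Gata4 and Pdgfra higher by 0.64 and 1.78 on the log2 scale and Gata6 lower, at -0.59. Trophectoderm markers (5 of 8 listed) summed to 632 to 698 normalized reads over the 4 libraries. Neural markers summed to 156 and 159 without IAA and 221 and 223 with IAA, and mesoderm markers to 93.1 and 104 against 124 and 153, with 2 of 5 listed in each. The part of these cell types in the results was not tested.

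With IAA many genes changed and most changes were small. Of the genes tested, 5966 (37.7%) passed an adjusted p of 0.05 in limma, 3061 higher (19.4%) and 2905 lower (18.4%), and the median change of the genes tested was -0.0017 on the log2 scale. Of the called genes, 4210 (70.6%) changed by less than 1.5-fold. At least 2-fold changes that passed numbered 680 (4.3%), with 366 higher (2.31%) and 314 lower (1.99%). The libraries of the 2 groups did not overlap for 68.2% of all genes tested, so a gene whose groups are apart is common here. When every library was rescaled to the same total, the share of higher genes among the calls went from 51.3% to 38.5% and the median of all genes to -0.053. Fold changes below are IAA minus no IAA on the log2(normalized reads + 1) scale, which understates low genes, n is 2 libraries a group throughout, and an error after ± is an SE unless marked SD. In bulk cells, a lower value in each cell and fewer cells with the gene active cannot be told apart.

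The 74 lists of pathways, complexes and families, which hold 3302 distinct tested genes, were read against those shares. For 34 of the 74 lists the sign of the median and the sign of higher minus lower members held under all 15 alternative settings, and for 40 either sign changed somewhere. Lists overlap in part, and a share near 19.4% higher and 18.4% lower is no more than the background. Among protein-coding genes that background differed by level, with 34.7% higher and 19.7% lower in the top of 4 equal groups. In the lowest group the shares were 12.0% and 12.0%, and the lists were not matched for level.

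**Figure D1:**
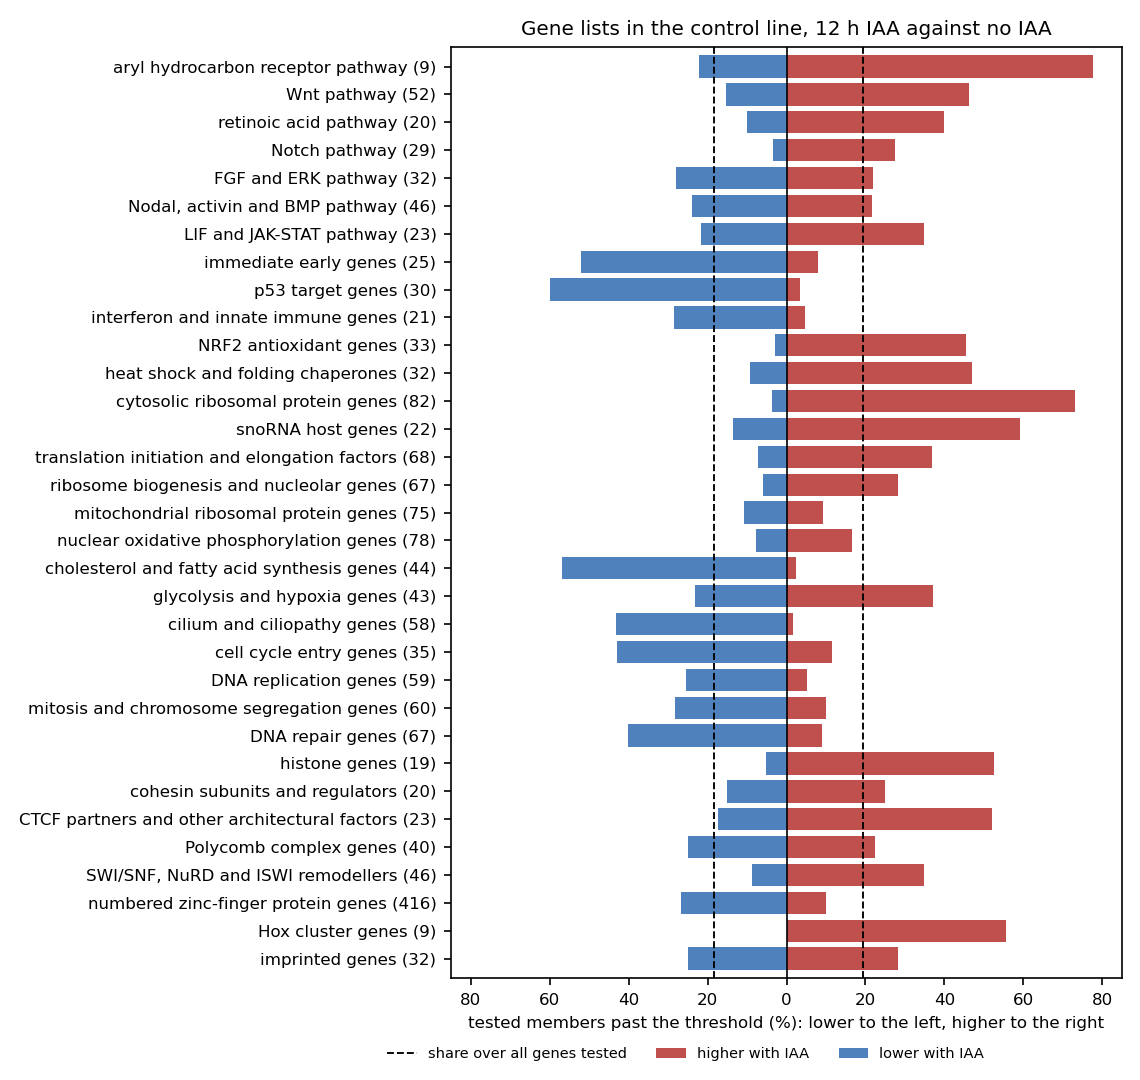
Share of the tested members of 33 gene lists (number of members in brackets) that passed the threshold, drawn to the left for genes lower with IAA and to the right for genes higher with IAA, in percent. The dashed lines mark 18.4% lower and 19.4% higher over all genes tested. Cytosolic ribosomal protein genes reach 73.2% higher, while p53 target genes and cholesterol and fatty acid synthesis genes reach 60% and 56.8% lower.

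Signalling genes were described from ligands and receptors to targets. The aryl hydrocarbon receptor (AhR) is a ligand-activated transcription factor that induces xenobiotic-metabolising enzymes and its own repressor. Of 9 tested members 7 were higher and 2 lower, with a median of 0.62 (6 and 2 with equal totals). The most induced was Cyp1a1 (3.89 ± 0.18, SE). Ahrr, the AhR repressor (ENSMUSG00000021575.16, chromosome 13, 74211118 to 74292331, minus strand), stood at 38.4 and 47.4 normalized reads without IAA and 192 and 209 with IAA, a log2 difference of 2.20 ± 0.14 (limma, adjusted p = 4.6e-16). Cyp1b1, a cytochrome P450 that is a standard AhR target, had 0.836 and 3.45 without IAA and 15.5 and 23.1 with IAA, on 5 reads in the untreated libraries together, and its log2 difference was 2.80 ± 0.45 (limma, adjusted p = 3.2e-06). In the other lines with IAA, Ahrr stood at 268 and 280.3 with wild-type CTCF and at 64.8 and 73.2 with mutated CTCF, and Cyp1b1 at 42.0 and 38.5 and at 4.18 and 1.98. Ahr itself and Tiparp, another AhR target, fell by 0.21 each (adjusted p = 0.0037 and 4.9e-05). Tiparp overlaps another gene of the table, and the strand setting of the counting is not given.

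Wnt pathway genes were higher more often than lower. Of 52 tested members, 24 rose (46.1%) and 8 fell, 4 rose and 0 fell by at least 2-fold, and the median was 0.15 (22 higher and 11 lower with equal totals). Dkk1, an antagonist that binds the co-receptor LRP6 (ENSMUSG00000024868.8, chromosome 19, 30545863 to 30549665, minus strand), stood at 3.34 and 3.45 normalized reads without IAA and 70.3 and 57.2 with IAA. Its log2 difference was 3.87 ± 0.28 (limma, adjusted p = 8.3e-15), on 8 reads in the untreated libraries together. Lgr6, a receptor for R-spondins, stood at 25.9 and 27.6 without IAA and 126 and 119 with IAA, a log2 difference of 2.15 ± 0.19 (limma, adjusted p = 5.1e-12). The secreted inhibitor Sfrp2 and the negative-feedback gene Nkd1 rose by 1.15 ± 0.13 and 1.06 ± 0.15 (SE). On the lower side were Ror1 and Ror2, receptors for Wnt5a, at -0.82 and -0.44, and the inhibitors Sfrp1 and Dkk3, at -0.41 and -0.36. Wnt signalling was held active by CHIR99021 in every group, so these differences stand on top of that inhibitor.

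Of the retinoic acid genes that passed, most were higher. Retinoic acid, made by ALDH1A enzymes, activates RAR receptors, while CRABP proteins bind it in the cytoplasm. Of 20 tested members, 8 rose, 4 of them at least 2-fold, and 2 fell (6 and 2 with equal totals), with a median of 0.21. The receptor gene Rarb stood at 283 and 272 normalized reads without IAA and 605 and 597 with IAA, a log2 difference of 1.11 ± 0.09 (limma, adjusted p = 1.0e-13), and it overlaps Top2b. Stra8, a retinoic acid-responsive gene of meiotic entry, had 365 and 397 without IAA and 903 and 908 with IAA, a log2 difference of 1.25 ± 0.08 (limma, adjusted p = 1.6e-16). The synthesis enzyme Aldh1a2 rose by 1.34 ± 0.21 and Rarres1 by 2.12 ± 0.40 (SE), the latter on 9 reads in the untreated libraries together. Crabp1 fell from 75.2 ± 8.24 to 35.4 ± 1.24 normalized reads (SD), a log2 change of -1.06 ± 0.21 (SE). The receptor, the synthesis enzyme and Stra8 were thus higher while the binding protein was lower.

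In the Notch pathway 8 of 29 tested members rose and 1 fell (7 higher and 6 lower with equal totals), with the ligand gene Dll3 at 1.32 ± 0.39, the Fringe glycosyltransferase Rfng at 1.00 ± 0.22 and the receptor Notch3 at -0.29 ± 0.08 (SE). FGF and ERK genes split, 7 higher and 9 lower of 32 (6 and 14 with equal totals). Fgf4, a ligand that can activate ERK signalling, fell from 1504 ± 32.8 to 1032 ± 70.4 normalized reads (SD), a log2 difference of -0.54 ± 0.06 (limma, adjusted p = 2.4e-10). The ERK feedback genes Dusp6 and Spry4 were lower too, at -1.10 ± 0.17 and -0.87 ± 0.22, and Fgf1, which overlaps a gene of low count, stood at 27.6 and 22.4 without IAA and 1.19 and 6.60 with IAA, while the ETS factor Etv1 rose by 0.73 ± 0.04. MEK was inhibited by PD0325901 in all groups.

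Nodal, activin and BMP genes also split, 10 higher and 11 lower of 46 (8 and 16 with equal totals), yet held several large single changes. Tgfbr3, the betaglycan co-receptor (ENSMUSG00000029287.14, chromosome 5, 107106570 to 107289629, minus strand), stood at 583 and 583 normalized reads without IAA and 3012 and 3088 with IAA. Its log2 difference of 2.39 ± 0.05 (limma, adjusted p = 5.6e-33) was among the 12 highest of abundant protein-coding genes. Inhbb, the inhibin beta B subunit that forms activin B, went the other way, at 109 and 112 without IAA and 33.4 and 29.7 with IAA, a log2 difference of -1.78 ± 0.21 (limma, adjusted p = 4.5e-09). Fst, the activin-binding protein follistatin, fell by 1.28 ± 0.24, the BMP target Id3 fell by 0.96 ± 0.38, and Lefty1, a secreted Nodal inhibitor, rose by 1.37 ± 0.19 (SE). In the LIF and JAK-STAT list 8 rose and 5 fell of 23 (5 each with equal totals), with Jak1 at 0.53 and Jak2 and the feedback gene Socs2 at -0.64 and -0.56 on the log2 scale.

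**Figure D2:**
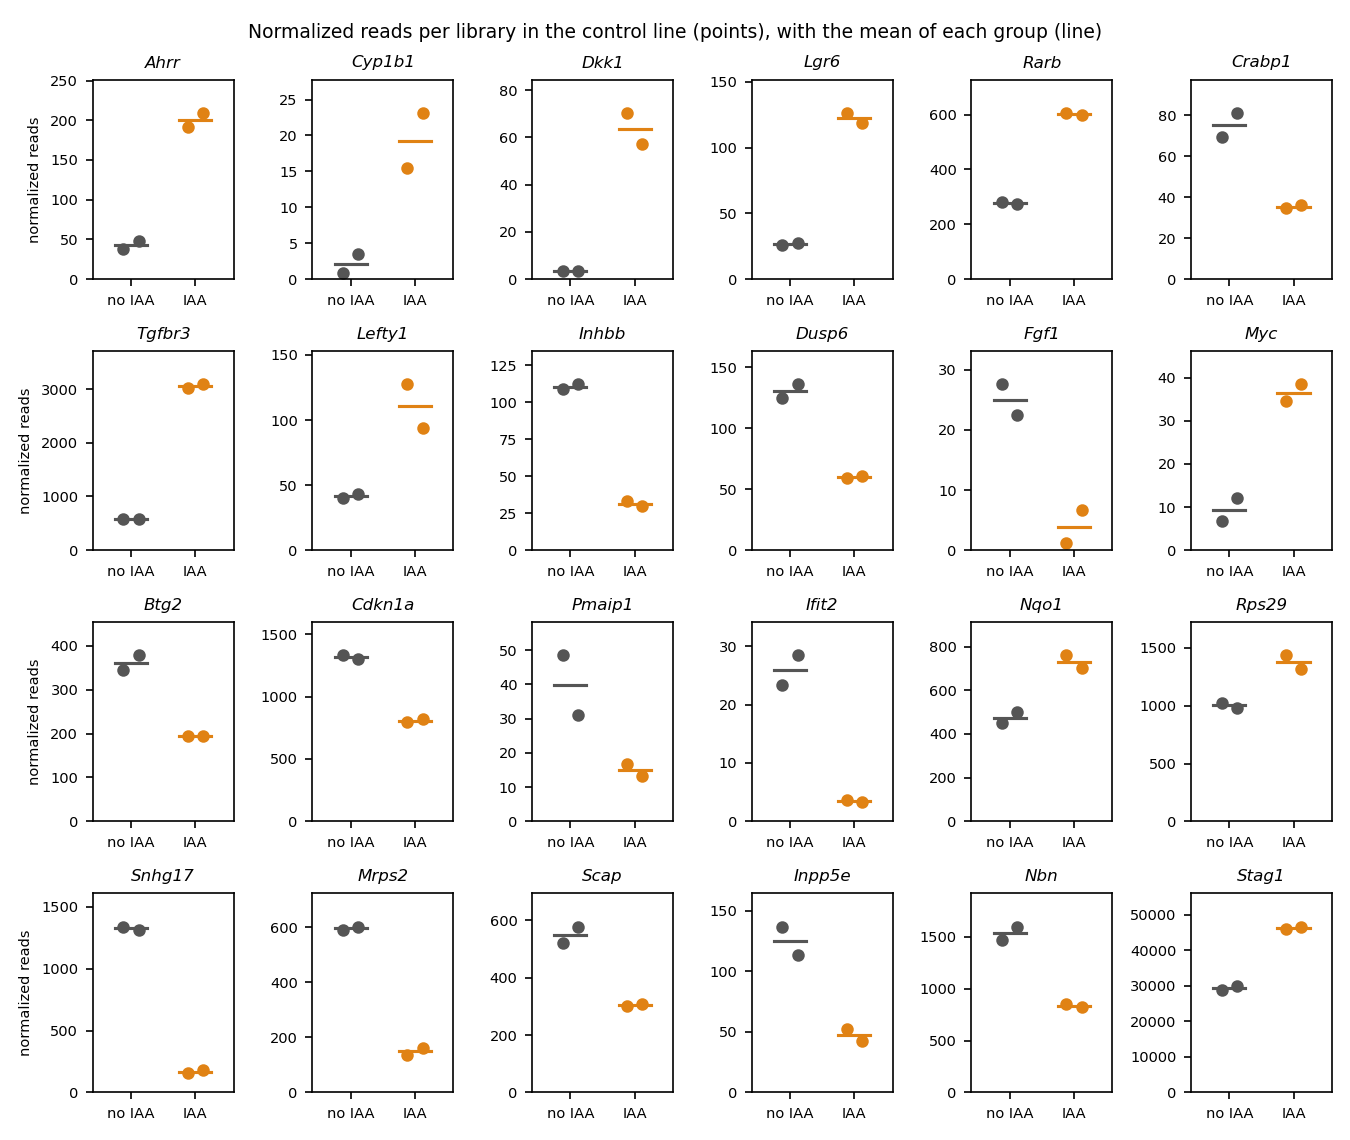
Normalized reads in each library of the control line for 24 named members, without IAA (grey) and with IAA (orange), with points for libraries and a line for the mean of the 2. The naming rule took called members only where libraries with and without IAA did not overlap, so each panel shows them apart. Panels run from Cyp1b1 at 0.836 and 3.45 against 15.5 and 23.1 to Stag1 at 28799 and 29972 against 45808 and 46632.

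Stress and response genes divided by pathway. p53 target genes, induced by the tumour suppressor p53 and linked to cell cycle arrest and death, were lower in 18 of 30 (60%, against 18.4% of all genes) and higher in 1, with a median of -0.36. Cdkn1a, the p21 cell cycle inhibitor (ENSMUSG00000023067.14, chromosome 17, 29090976 to 29100727, plus strand), stood at 1331 and 1305 normalized reads without IAA and 793 and 820.5 with IAA. Its log2 difference was -0.71 ± 0.05 (limma, adjusted p = 3.6e-14). Pmaip1, the death-promoting protein NOXA, had 48.5 and 31.0 without IAA and 16.7 and 13.2 with IAA, a log2 difference of -1.33 ± 0.31 (limma, adjusted p = 6.5e-04), which went to -1.02 with an adjusted p of 0.055 without the first untreated library. Perp and Phlda3 fell, with log2 changes of -0.74 ± 0.25 and -0.70 ± 0.13, and Sesn1 was the member that rose, by 0.36 ± 0.04 (SE). Among apoptosis regulators, which share Pmaip1 with that list, 4 rose and 9 fell of 32, with the pore-forming Bak1 at -1.24 ± 0.13 and Casp8 at 0.46 ± 0.11.

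Immediate early genes, transcribed within minutes of a stimulus, were lower in 13 of 25 and higher in 2, with a median of -0.33. Ier5, Btg2, Arc and Junb fell, with log2 changes of -1.10 ± 0.22, -0.89 ± 0.09, -0.88 ± 0.18 and -0.84 ± 0.34 (SE). Btg2, an antiproliferative gene that p53 also induces, had 346 and 378 without IAA and 195 and 195 with IAA. The 2 that rose were Myc and Fos. Myc stood at 6.69 and 12.1 without IAA and 34.5 and 38.5 with IAA, a log2 difference of 1.90 ± 0.29 (limma, adjusted p = 7.8e-07), and Fos at 10.03 and 12.9 without IAA and 16.7 and 34.1 with IAA, where the 2 libraries with IAA differed by more than the group means did and the change was 0.51 with an adjusted p of 0.33 without the second of them. Junb overlaps Prdx2.

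Interferon and innate immune genes were lower in 6 of 21 and higher in 1, with a median of -0.28. That median ranged from -0.35 to -0.15 when 1 library was left out. Ifit2, an interferon-induced antiviral protein, stood at 23.4 and 28.4 normalized reads without IAA and 3.57 and 3.30 with IAA, a log2 difference of -2.60 ± 0.40 (limma, adjusted p = 1.1e-06), and the RNA sensor Ddx58 fell by 0.74 ± 0.16. Ifitm1 and Ifitm3, neighbouring members of a family of antiviral membrane proteins, moved apart, by 1.31 ± 0.12 and -0.63 ± 0.14 (SE).

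NRF2 antioxidant genes, which NRF2 switches on under oxidative stress, were higher in 15 of 33 and lower in 1 (13 and 1 with equal totals), with a median of 0.11. Of the higher members, 2 rose by at least 2-fold. Nqo1, a quinone reductase that AhR also induces, had 449 and 499 without IAA and 760.0 and 702 with IAA, a log2 difference of 0.62 ± 0.07 (limma, adjusted p = 7.2e-09). Gsta2 and Osgin1 rose by 1.17 ± 0.26 and 1.26 ± 0.38, the cystine transporter Slc7a11 by 0.62 ± 0.22, and Gsta3 fell by 0.34 ± 0.10 (SE). Gsta3 overlaps another gene that was lower. Heat shock and folding chaperones were higher in 15 of 32 and lower in 3, a surplus that shrank to 6 and 5 with equal totals and vanished without the mean-variance trend. Hsp90ab1, an abundant HSP90, rose by 0.45 ± 0.03 and Hspa1b, an inducible HSP70, by 1.08 ± 0.35 (SE). In the ATF4 list 9 rose and 3 fell of 29, led by Atf5 at 0.80 ± 0.12, which overlaps a gene that was lower.

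Cytosolic ribosomal protein genes were mostly higher, by small amounts. Of 82 tested 60 (73.2%) rose and 3 fell, 0 of them by 2-fold, with a median of 0.21 (53 and 4, and a median of 0.16, with equal totals). Rps29 had 1026 and 978 without IAA and 1435 and 1316 with IAA, a log2 difference of 0.46 ± 0.06 (limma, adjusted p = 4.4e-08). Rpl13a and Rpl23a rose by 0.57 ± 0.12 and 0.39 ± 0.05, while Rpl5, whose free protein binds the p53 regulator MDM2, fell from 4123 ± 28.3 to 3475 ± 159 normalized reads (SD), a log2 change of -0.25 ± 0.04 (SE). Processed pseudogene copies can share reads with these genes, and of 281 processed pseudogenes tested 38 rose and 11 fell. Rpl5 and Rpl23a overlap other genes of the table.

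Hosts of small nucleolar RNAs, noncoding or ribosomal genes whose introns yield guides for ribosomal RNA modification, were higher in 13 of 22 and lower in 3, with a median of 0.19. Rpl13a is counted both here and among the ribosomal protein genes, so these lists are not separate groups. The exception in size was Snhg17 (ENSMUSG00000085385.7, chromosome 2, 158353700 to 158361580, minus strand), at 1339.9 and 1316 normalized reads without IAA and 154 and 180.4 with IAA, a log2 difference of -2.99 ± 0.07 (limma, adjusted p = 1.6e-30). Its 2 libraries with IAA lay far below both untreated ones, while hosts such as Zfas1 (0.34 ± 0.04) and Snhg8 (0.37 ± 0.09) rose. Translation factors were higher in 25 of 68 and lower in 5 (24 and 12 with equal totals). Eif4g3, a scaffold of cap-dependent initiation, rose by 0.86 ± 0.04, Eif2b5 by 0.98 ± 0.06, the oocyte-type Eif4e1b by 1.76 ± 0.37 from 16 untreated reads, and the poly(A)-binding Pabpc4 fell by 0.88 ± 0.06 (SE). Ribosome biogenesis genes were higher in 19 of 67 and lower in 4 (13 and 9 with equal totals), with Bysl, a small-subunit assembly factor, at -1.01 ± 0.09.

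Of the mitochondrial ribosomal protein genes, 7 rose and 8 fell of 75 (6 and 13 with equal totals), both below the background shares. Both members past 2-fold were lower. Mrpl23 (ENSMUSG00000037772.13, chromosome 7, 142532686 to 142540747, plus strand) stood at 62.7 and 64.7 normalized reads without IAA and 2.38 and 6.60 with IAA, a log2 difference of -3.67 ± 0.31 (limma, adjusted p = 1.0e-12). Mrps2 had 591 and 603 without IAA and 135 and 163 with IAA, a log2 difference of -2.0 ± 0.10 (limma, adjusted p = 1.2e-19). Nuclear genes of oxidative phosphorylation were called at low shares (13 higher, 16.7%, and 6 lower, 7.69%, of 78), and the balance turned to 9 and 17 with equal totals.

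Cholesterol and fatty acid synthesis genes were mostly lower. Of 44 tested members 25 (56.8%) were lower and 1 was higher (31 and 1 with equal totals), with a median of -0.24 and 0 members past 2-fold. Scap, the sterol-sensing escort that carries SREBP to its activating proteases (ENSMUSG00000032485.14, chromosome 9, 110333288 to 110384950, plus strand), stood at 522 and 578 normalized reads without IAA and 303 and 307 with IAA. Its log2 difference was -0.85 ± 0.08 (limma, adjusted p = 1.8e-11). Elovl2, an elongase of polyunsaturated fatty acids, fell by 0.92 ± 0.11, and the genes of the sterol enzymes Mvd and Hsd17b7 stood at -0.63 ± 0.13 and -0.50 ± 0.06 (SE). Srebf2, the SREBP2 gene, was lower by much less, at -0.12 ± 0.04. Acacb, a mitochondrial acetyl-CoA carboxylase, was the member that rose, by 0.46 ± 0.09. Mvd lies within a longer gene that was itself higher. Srebf2 lay outside the naming rule and was added after its value was seen.

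Glycolysis and hypoxia genes changed in both directions, 16 higher and 10 lower of 43 (15 and 13 with equal totals). The collagen prolyl hydroxylase P4ha2 rose by 1.62 ± 0.35 and the lactate exporter Slc16a3 by 0.74 ± 0.17, while Epas1, which encodes HIF2α, and Vegfa, the vascular growth factor, fell, with log2 changes of -0.56 ± 0.08 and -0.55 ± 0.07 (SE).

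Cilium and ciliopathy genes that passed were nearly all lower. Of 58 tested members 25 (43.1%) were lower and 1 was higher (34 and 1 with equal totals), 4 of the 25 by at least 2-fold, led by Cc2d2a (-4.17 ± 0.15, SE), with a median of -0.21. The primary cilium is a microtubule antenna, and its genes are spread over the genome. Inpp5e, a phosphoinositide phosphatase of the ciliary membrane (ENSMUSG00000026925.16, chromosome 2, 26396249 to 26409203, minus strand), stood at 137 and 114 normalized reads without IAA and 52.4 and 42.9 with IAA, a log2 difference of -1.38 ± 0.17 (limma, adjusted p = 8.3e-09). Dnaaf1, needed to assemble dynein arms, fell by 1.31 ± 0.42 from 39 untreated reads, and Dnah11, a dynein heavy chain, rose by 0.90 ± 0.25 (SE). These 3 genes each overlap another gene of the table. The transition-zone gene Tmem67 (-0.46 ± 0.09), the BBSome regulator Arl6 (-0.62 ± 0.11) and the intraflagellar transport gene Ift88 (-0.52 ± 0.09) were among those that fell, and were added after their values were seen.

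**Figure D3:**
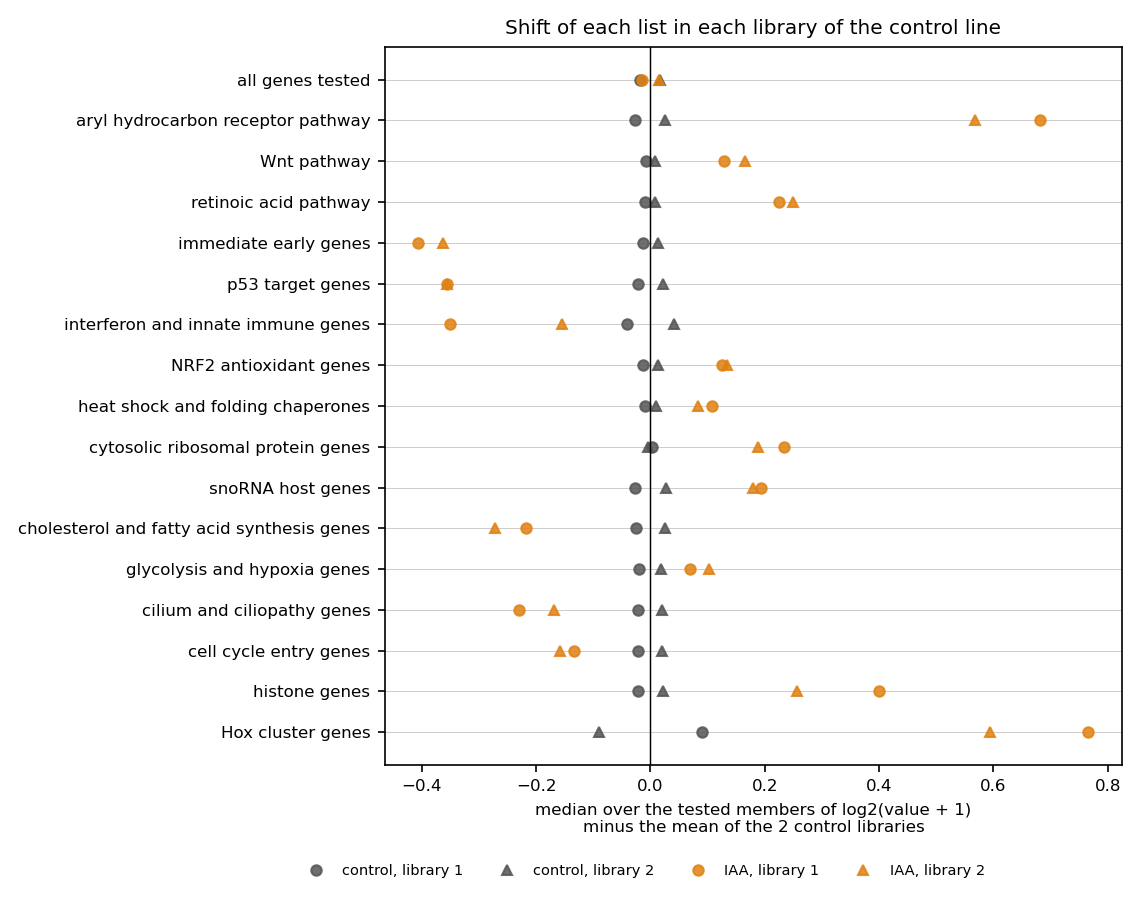
Median over the tested members of each list of log2(normalized reads + 1) minus the mean of the 2 untreated libraries, for each library of the control line (grey without IAA, orange with IAA; circles library 1, triangles library 2). For p53 target genes both libraries with IAA lie at -0.36, and for cholesterol and fatty acid synthesis genes they lie at -0.22 and -0.27, while the untreated libraries lie no farther than 0.09 from 0 in the lists shown.

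Genes of the cell cycle and the genome were lower more often than higher, mostly by small amounts. DNA repair genes were lower in 27 of 67 (40.3%) and higher in 6 (32 and 5 with equal totals), with a median of -0.10. Nbn, the NBS1 subunit of the complex that senses double-strand breaks, stood at 1471 and 1599 normalized reads without IAA and 848 and 827 with IAA, a log2 difference of -0.87 ± 0.05 (limma, adjusted p = 6.7e-17). The translesion polymerase genes Rev1 and Polk fell, with log2 changes of -0.77 ± 0.03 and -0.59 ± 0.05, and the nuclease gene Ercc4 and the Fanconi gene Fancc rose by 0.57 ± 0.05 and 0.40 ± 0.04 (SE). Rev1 and Fancc overlap called genes that changed in the same direction. Cell cycle entry genes were lower in 15 of 35 and higher in 4 (21 and 4 with equal totals), with Cdk6, a G1 kinase, at 6176 ± 25.5 to 3491 ± 2.61 normalized reads (SD), a log2 difference of -0.82 ± 0.04 (limma, adjusted p = 1.2e-21). E2f2 fell by 0.83 ± 0.11, and the inhibitor Cdkn1c rose by 1.16 ± 0.37 from 19 untreated reads. DNA replication genes were lower in 15 of 59 and higher in 3 (26 and 3 with equal totals), with Gins2, Rfc3 and Rrm2 at -0.57, -0.53 and -0.46, and Gins2 lies within a longer gene that was higher. Mitosis genes were lower in 17 of 60 and higher in 6 (28 and 3 with equal totals), a balance that turned to 1 more higher than lower without the mean-variance trend and to equal numbers without the second untreated library.

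Histone genes went the other way, 10 higher and 1 lower of 19, with a median of 0.35. These counts cover the histone genes that passed the minimum, and near-identical histone copies can share reads. The testis-type linker H1f6 rose by 1.19 ± 0.28, 5 neighbouring genes from H2ac15 to Hist1h2an on chromosome 13, a run picked after its values were seen, rose by 0.36 to 0.45, and the linker H1f10 fell by 0.68 ± 0.24, where it overlaps another lower gene. In the other lines with IAA the median histone shift was -0.17 and 0.05 with wild-type CTCF and -0.23 and -0.08 with mutated CTCF, against 0.40 and 0.26 in the control line with IAA.

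Among chromatin genes most changes were under 1.5-fold. CTCF partners and other architectural factors were higher in 12 of 23 and lower in 4 (10 and 6 with equal totals), with the remodeller Chd4 at 0.32 ± 0.05 and Ldb1, which bridges enhancers and promoters, at -0.32 ± 0.07. Of the cohesin list, 5 rose and 3 fell of 20 (4 and 5 with equal totals). Stag1, a cohesin subunit, stood at 28799 and 29972 normalized reads without IAA and 45808 and 46632 with IAA, a log2 difference of 0.65 ± 0.02 (limma, adjusted p = 9.5e-24), and Esco2, which acetylates cohesin in S phase, fell by 0.51 ± 0.05. Histone methyltransferases and demethylases were higher in 18 of 47 and lower in 8 (15 and 13 with equal totals), with the H3K9 methyltransferase Setdb1 at 0.43 ± 0.04 and the H3K4 demethylase Kdm1a at -0.41 ± 0.04. Chromatin remodellers were higher in 16 of 46 and lower in 4 (15 and 10 with equal totals), and their median of 0.05 turned slightly negative with equal totals. The outlier among them was Dpf3, a BAF subunit (ENSMUSG00000021221.15, chromosome 12, 83213745 to 83487716, minus strand), at 322 and 355 normalized reads without IAA and 877 and 899.7 with IAA, a log2 difference of 1.39 ± 0.08 (limma, adjusted p = 3.8e-18), while Brd7 fell by 0.52 ± 0.05. Polycomb genes split 9 higher to 10 lower of 40 (8 and 12 with equal totals), with Cbx2 at -0.61 ± 0.15 and Pcgf1 at 0.48 ± 0.15.

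Zinc-finger protein genes with a number in their name, many of which hold KRAB or BTB domains, were the largest family tested and leaned down. Of 416 tested, 111 (26.7%) were lower and 42 (10.1%) higher, 7 and 2 of them by at least 2-fold, with a median of -0.09 (169 lower and 36 higher with equal totals). Zbtb39 fell from 370.5 ± 1.48 to 157 ± 17.0 normalized reads (SD), a log2 difference of -1.23 ± 0.11 (limma, adjusted p = 1.1e-12), and Zbtb16, which encodes PLZF, rose by 1.16 ± 0.16. Homeobox genes leaned up. Of 9 tested Hox genes 5 were higher and 0 lower (5 and 1 with equal totals), with Hoxb13 at 1.53 ± 0.40 from 15 untreated reads and Hoxc5 at 0.94 ± 0.17. Of 20 genes of other homeobox families 8 rose and 2 fell (7 and 4 with equal totals), led by Lhx8 (1.76 ± 0.40) and Barx2 (1.44 ± 0.42). Among nuclear receptors 8 rose and 8 fell of 33 (7 and 10 with equal totals), with large changes at both ends: the estrogen receptor genes Esr2 and Esr1 rose by 1.87 ± 0.41, from 9 untreated reads, and 1.76 ± 0.22, and Nr2c1, the orphan receptor TR2, fell by 2.53 ± 0.13 (SE).

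Pluripotency factors changed in both directions, 8 higher and 8 lower of 24 for the naive list (7 and 8 with equal totals) and 4 and 7 of 17 for the formative list (3 and 9). Foxd3, a formative-stage factor, fell from 89.6 ± 2.55 to 37.984 ± 8.61 normalized reads (SD), a log2 change of -1.23 ± 0.19 (SE). Imprinted genes likewise split 9 higher to 8 lower of 32 (8 and 11 with equal totals), with Peg3 at 0.68 ± 0.08, Sgce at 1.11 ± 0.30 and its neighbour Ppp1r9a at -1.23 ± 0.07.

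Families of surface proteins held large single changes in both directions. Of 88 tested potassium, sodium and calcium channel genes 15 rose and 15 fell (14 and 17 with equal totals), 5 and 3 by at least 2-fold. That is 17% each way, below the 19.4% higher and 18.4% lower of all genes tested. Scn3a, a voltage-gated sodium channel of neurons (ENSMUSG00000057182.15, chromosome 2, 65457118 to 65567627, minus strand), stood at 374 and 367 normalized reads without IAA and 56.0 and 63.8 with IAA, a log2 difference of -2.61 ± 0.12 (limma, adjusted p = 5.6e-21). The epithelial sodium channel gene Scnn1a rose by 1.64 ± 0.23 (SE). Neurotransmitter receptors split 9 higher (22.5%) to 10 lower (25%) of 40 (8 and 10 with equal totals). The serotonin receptor Htr5a stood at 1.95 ± 0.22, the GABA receptor subunit Gabrp at 1.44 ± 0.16 and the nicotinic receptor Chrna7 at -1.18 ± 0.08. Axon guidance genes split 13 higher (22.0%) to 12 lower (20.3%) of 59 (13 and 14 with equal totals), near the shares of all genes tested. The ephrin receptor Ephb1 had 257 and 267 without IAA and 777 and 772 with IAA, a log2 difference of 1.56 ± 0.07 (limma, adjusted p = 1.3e-21), and Plxna4, a semaphorin receptor, had 288 and 299.99 without IAA and 97.7 and 91.3 with IAA, a log2 difference of -1.63 ± 0.14 (limma, adjusted p = 1.6e-12). Sema5b fell by 1.33 ± 0.07 and the integrin Itga8 fell by 2.02 ± 0.26. Of 257 solute carriers 62 rose (24.1%) and 44 fell (17.1%), and the balance turned to 51 and 62 with equal totals. The choline transporter-like Slc44a5 stood at 2.35 ± 0.26 and the heme transporter Slc48a1 at -2.43 ± 0.21. Among the genes named above, Jak1, Bysl, Zfas1, Setdb1, Kdm1a, Ldb1, Zbtb39, Scn3a, Notch3, Sfrp2 and Slc48a1 also overlap another gene of the table.

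Other genes lay at the ends of the distribution. Among abundant protein-coding genes, Rnf144a, a ubiquitin ligase, stood at 155 and 146 normalized reads without IAA and 9.53 and 16.5 with IAA, a log2 difference of -3.48 ± 0.20 (limma, adjusted p = 1.1e-17). Det1, an adaptor of the CUL4 ubiquitin ligase, had 248 and 279 without IAA and 33.4 and 30.8 with IAA, and Mob3b had 2091 and 2028 without IAA and 307 and 277 with IAA. App, the amyloid precursor protein gene, had 249 and 241 without IAA and 29.8 and 51.7 with IAA, and the neuronal RNA-binding gene Elavl4 had 120.4 and 118 without IAA and 16.7 and 16.5 with IAA. In each of these 5 genes both libraries with IAA lay more than 4-fold below both untreated ones. At the upper end, Serpinb9, an inhibitor of granzyme B, had 24.2 and 18.1 without IAA and 154 and 142 with IAA. Aox3, an aldehyde oxidase, had 45.1 and 39.7 without IAA and 239 and 252 with IAA, Nedd9, a scaffold of focal adhesions, had 16.7 and 15.5 without IAA and 63.1 and 94.6 with IAA, and St8sia2, a polysialyltransferase, had 19.2 and 34.5 without IAA and 122.69 and 118 with IAA.

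Position on the chromosome went with direction. Among adjacent tested genes whose bodies do not overlap and which both passed the threshold, 92 of 119 pairs (77.3%) with start sites 1 to 10 kb apart changed the same way, as did 71 of 106 (67.0%) below 1 kb and 401 of 584 (68.7%) at 10 to 50 kb. The share was 487 of 798 (61.0%) at 50 to 200 kb and 307 of 557 (55.1%) beyond. Pairs share genes and libraries, so no test was made. Of the 48 such pairs, at any distance, in which both genes changed at least 2-fold, 28 rose together, 8 fell together and 12 moved apart.

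**Figure D4:**
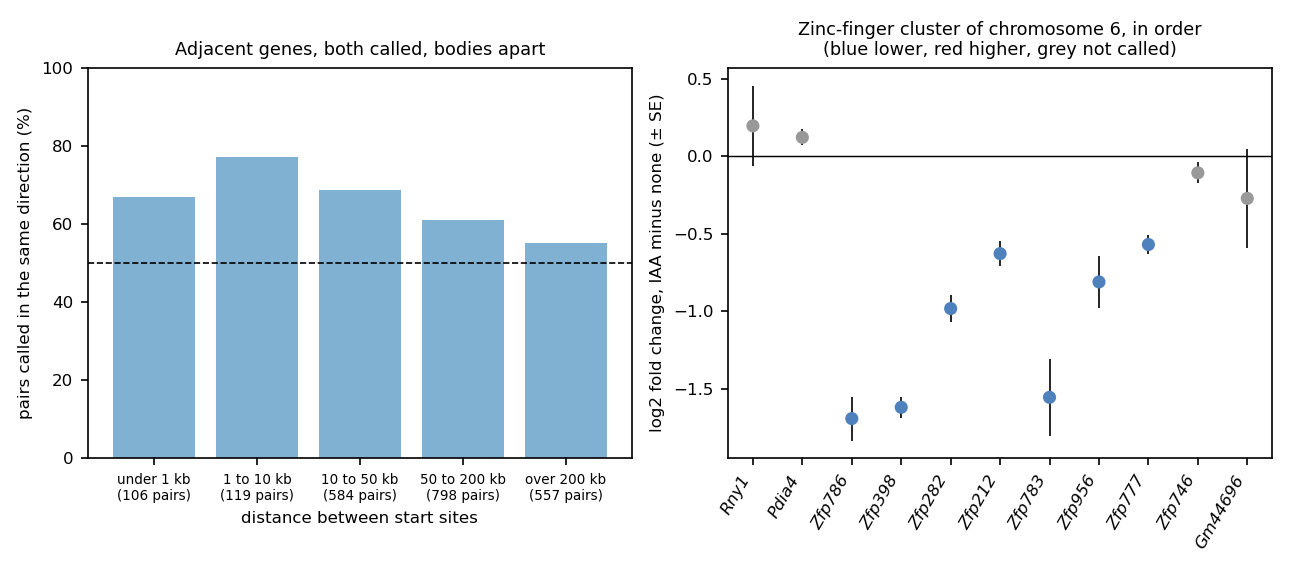
Left, percent of adjacent pairs of called genes that changed in the same direction, by distance between start sites (number of pairs under each bar; dashed line at 50%), falling from 77.3% at 1 to 10 kb to 55.1% beyond 200 kb. Right, log2 fold change (± SE) of 11 genes in their order along chromosome 6, in which 7 zinc-finger genes in a row are lower, from -1.69 at Zfp786 to -0.57 at Zfp777, between genes that did not pass on the deposited scaling.

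Runs of neighbours that changed alike reached 7 genes, in 4 places. The runs and the genes in them were picked after their values were seen. On chromosome 6, 7 consecutive zinc-finger genes of the numbered family, 1 of which, Zfp783, GENCODE annotates as a transcribed pseudogene, from Zfp786 (chromosome 6, 47819266) to Zfp777 (ending at 48048911), were all lower. Zfp786 stood at 193 and 208 normalized reads without IAA and 64.3 and 58.3 with IAA, and Zfp398, whose start lies 4794 bases away on the other strand, at 1255 and 1312 without IAA and 389.5 and 445 with IAA. Zfp282, Zfp212, Zfp783, Zfp956 and Zfp777 fell, with log2 changes of -0.98 ± 0.08, -0.63 ± 0.08, -1.56 ± 0.25, -0.81 ± 0.17 and -0.57 ± 0.06 (SE). The next gene, Zfp746, had 726 and 778 without IAA and 659.9 and 737 with IAA and did not pass (adjusted p = 0.22), although it did with equal totals (adjusted p = 0.032). Zfp783 and Zfp956 overlap on the same strand, so their reads may be shared.

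A second run of 7 lower genes on chromosome 4 went from Pdp1 to Fam92a and included the cilium gene Tmem67. Higher runs of 7 lay on chromosome 2, with the DNA methyltransferase gene Dnmt3b (0.39 ± 0.07) inside, and on chromosome 6, from 2210408F21Rik to Podxl. On chromosome 5, the receptor tyrosine kinase genes Pdgfra, Kit and Kdr and their neighbours Srd5a3, Tmem165 and Clock rose together, Pdgfra by 1.78 ± 0.21, Kit by 0.29 ± 0.03 and Kdr by 0.51 ± 0.15 (SE).

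Other loci held opposite changes at adjacent or nearby genes. On chromosome 2, Grb14 and Cobll1 rose by 1.48 ± 0.21 and 2.68 ± 0.08, the sodium channel gene Scn3a, whose start lies 328224 bases from that of Cobll1, fell by 2.61, its neighbour Csrnp3 fell by 0.55, and Scn9a rose by 1.55 ± 0.43. Cobll1 stood at 144 and 141 without IAA and 923 and 911 with IAA. A gene that did not pass lies between Cobll1 and Scn3a, and another between Csrnp3 and Scn9a. On chromosome 8, Osgin1 rose by 1.26 and Necab2 fell by 1.72. Aldh5a1 and Gpld1, which start 5491 bases apart on opposite strands, changed by -2.02 ± 0.19 and 1.30 ± 0.39, and Muc1 and Krtcap2 by 1.21 ± 0.28 and -2.03 ± 0.17 (SE). Slc51a and Zdhhc19, which start 8386 bases apart on opposite strands, rose together, by 1.72 ± 0.26 and 2.71 ± 0.10.

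Because CTCF binds beside many promoters, the start sites of protein-coding genes were searched on both strands for 2 words of 12 bases from the centre of its motif. Both words hold CC, any 3 bases, AG and any 1 base in that order, and they end in GGGC or in TGGC. The words, the window and the split at 150 bases were chosen after gene values were seen. Windows ran from 250 bases before to 50 after each RefSeq start site, 12958 of 13129 tested protein-coding genes (98.7%) had a window, and the words differ at 1 base, so no position on a strand matches both. In all 45048 windows of the annotation 1.86% held a word within 150 bases upstream on the strand of the gene and 1.40% on the opposite strand. The classes below are counted per gene, with any of its windows. Counted so, the shares over all tested protein-coding genes with a window were 3.43% and 2.50%, at 1.33 windows a gene on average.

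Genes that fell steeply held a word on their own strand more often. The share was 34.8% (16 of 46) of genes lower by at least 4-fold (0.329% of all genes tested, 0.291% counting only protein-coding ones), 17.1% (43 of 251) of all those lower by at least 2-fold, and 4.63% of those lower by less. It was 2.96% of genes that did not pass, 2.36% of those higher by under 2-fold and 3.47% (9 of 259) of those higher by at least 2-fold. On the opposite strand the shares were 2.17%, 3.98%, 3.02%, 2.22%, 2.61% and 3.86% in the same order, with no such step. The median GC content of the windows was 62.0% in each class of lower genes and 57.3% to 61.3% in the others. It was 60.7% over all tested protein-coding genes with a window, but 52% over all windows of the annotation.

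Read the other way, of 444 genes with a word on their own strand within 150 bases upstream, 149 (33.6%) were lower and 66 (14.9%) higher, 43 and 9 by at least 2-fold. Of 310 genes with a word on the opposite strand only, 71 (22.9%) were higher and 75 (24.2%) lower, and 9 and 9 by at least 2-fold. Of 11830 genes with no word in the whole window, 20.8% were higher and 18.9% lower, 239 and 193 genes by at least 2-fold. In the genes lower by at least 2-fold, words on the gene's strand began at a median of 85 bases before the start site. A match is a description of letters, not a measured CTCF site.

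**Figure D5:**
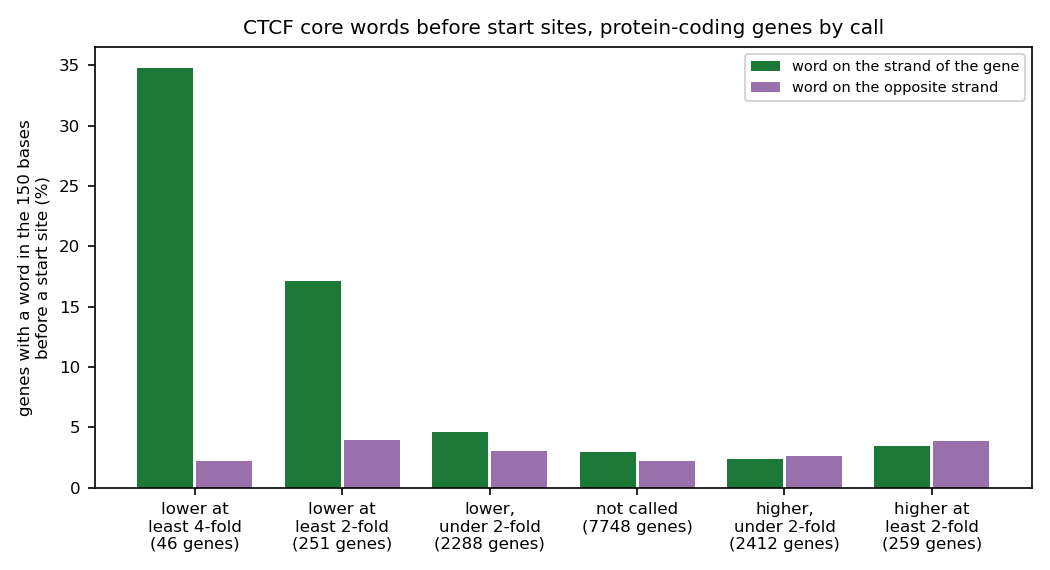
Percent of protein-coding genes with either word in the 150 bases before a start site, on the strand of the gene (green) or on the opposite strand (purple), by the change of the gene with IAA; genes lower by at least 4-fold are also counted among those lower by at least 2-fold. The green bars fall from 34.8% in genes lower by at least 4-fold to 2.36% in genes higher by under 2-fold, and the purple bars stay between 2.17% and 3.98%.

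The windows of genes described here show the word in its setting. Each line gives 30 bases of the RefSeq GRCm38.p6 promoter, 5′ to 3′ on the strand of the gene, with the word in capitals, and the genes not named before were chosen after their values were seen.
Spef2, chr15:9748949-9748978, minus strand: tcttacaagCCAGTAGGGGGCagacaacaa
Col27a1, chr4:63215290-63215319, plus strand: ttgctgcgtCCGGCAGGGGGCagcagttgg
Det1, chr7:78847224-78847253, minus strand: gcagcgcttCCGGTAGCGGGCggaaacccg
Adprhl2, chr4:126321739-126321768, minus strand: gactccgggCCACAAGGGGGCgctgtgggg
Nr2c1, chr10:94147830-94147859, plus strand: ccctccacaCCTACAGGGGGCaatcgactt
Steap1, chr5:5749371-5749400, minus strand: agctggtctCCGGCAGGGGGCgctgtgcgc
Itga8, chr2:12302002-12302031, minus strand: gagaactagCCGCTAGAGGGCgcgaagagc
Inpp5e, chr2:26409242-26409271, minus strand: gtcctccggCCGCGAGAGGGCgctgtggcg
Zfp786, chr6:47830575-47830604, minus strand: ctcctcctgCCCGCAGGGGGCgctgtgaga
Zfp398, chr6:47835588-47835617, plus strand: atgcgggggCCGCCAGGGGGCgcgctgtcc
Necab2, chr8:119446635-119446664, plus strand: gagaatcatCCGGCAGAGGGCgctcggggc
Elavl4, chr4:110351940-110351969, minus strand: acgtcaagcGCCCCCTAGAGGcggcggcgg
Cobll1, chr2:65238847-65238876, minus strand: gccgggtccCCTAAAGCGGGCagtggcttg
Fos, chr12:85473765-85473794, plus strand: gacagagcgCCCGCAGAGGGCcttggggcg

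Spef2, which encodes a protein of the sperm flagellum, stood at 44.3 and 44.0 normalized reads without IAA and 2.38 and 1.10 with IAA. Adprhl2, an ADP-ribose hydrolase gene, had 131 and 129 without IAA and 25.014 and 16.5 with IAA, and Steap1 had 29.3 and 23.3 without IAA and 7.15 and 3.30 with IAA. The collagen gene Col27a1 had a log2 difference of -3.50. Zfp786 and Zfp398, the first genes of the chromosome 6 run, start on opposite strands and each carried a word on its own strand. Elavl4 is shown as a steep fall whose word lies on the opposite strand, so its capitals are the reverse complement of a word. Cobll1 and Fos rose, by 2.68 ± 0.08 and 1.01 ± 0.32 (SE), and are shown because each carried a word on its own strand as well.

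Shares of calls also differed by gene length, level and biotype, on the deposited scaling. Of the longest protein-coding genes (65620 bases and over, the top of 4 groups of equal size), 32.0% were higher and 21.6% lower, against 14.5% to 19.7% higher and 12.5% to 21.9% lower in the 3 groups of shorter genes. In the top of 4 groups by level, 34.7% were higher and 19.7% lower, against 12.0% to 20.0% higher and 12.0% to 25.7% lower in the other 3, and the parts of level and length were not separated here. Small nuclear RNA genes were higher in 13 of 31 and lower in 0, with near-identical copies that can share reads. Of 820 lincRNA genes 145 (17.7%) rose and 110 (13.4%) fell, and of 649 antisense genes 75 (11.6%) rose and 99 (15.3%) fell, each share below that of all genes tested (19.4% and 18.4%).

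The same lists were read in the other lines with IAA, against the same untreated libraries, which all these values share. All genes tested had medians of 0.03 and 0.08 with wild-type CTCF and 0.03 and 0.07 with mutated CTCF. p53 target genes, at a median shift of -0.36 in both control libraries with IAA, lay at -0.05 and 0.03 with wild-type CTCF and at -0.21 and -0.19 with mutated CTCF. Cholesterol and fatty acid synthesis genes lay at 0.01 and 0.09 and at -0.06 and 0.03. Cilium genes lay at -0.29 and -0.25 and at -0.16 and -0.20, and cytosolic ribosomal protein genes at 0.25 and 0.41 and at 0.20 and 0.20. Cilium and ribosomal protein genes thus stood on the same side of 0 in all 6 libraries with IAA, whereas p53 and cholesterol genes with wild-type CTCF lay between -0.05 and 0.09, against 0.03 and 0.08 for all genes. Differences between lines were not tested here. Scap, for example, stood at 511 and 531 normalized reads with wild-type CTCF and 351 and 379 with mutated CTCF, and Snhg17 at 953 and 983 and 732 and 694.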

How the data were processed

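Transient transcriptome sequencing was compared between libraries of one stem cell line with and without IAA. The values deposited by the authors are gene counts divided by a factor per library (a normalized signal, not raw counts). Trim Galore, STAR, featureCounts, DESeq2 and the mm10 build are named per the submitters' processing notes, and their versions, settings, filters and strand handling are not given in the sources used here. In all 8 libraries every value was a whole multiple of the worth of 1 read (0.836 to 1.19 normalized reads) at a tolerance of 0.02, so whole reads recovered from the deposited values were used in count tests of 7 libraries, without the second of mutated CTCF, left out because its worth of 1 read (0.989) is close to 1, and the second-highest library of every listed gene held 10 reads or more. The table lists 16940 genes, and Ctcf was not analysed here.

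Values were tested as log2(value + 1) with limma 3.58.1 in R 4.3.3 (all 8 libraries, 4 groups, 4 residual degrees of freedom, mean-variance trend). Genes needed a mean of 10 over the libraries, and p-values were adjusted by Benjamini-Hochberg over all genes tested, with a threshold of 0.05. The libraries are labelled as replicates with no word on separate cultures, so p-values measure only the spread between these libraries, which may be technical. Gene positions came from GENCODE M21 (GRCm38), in which 16916 gene IDs were found, and promoter windows from RefSeq on GRCm38.p6.

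The comparison, the lists, the word search, the runs and loci were chosen with earlier results of these data known. Genes named in the text are, per list, the 4 most changed called members in each direction, and the 12 highest and 12 lowest protein-coding genes with a mean of at least 50, some of which are not reported here, and other names are stated as chosen after their values were seen. Alternatives were other pseudocounts, filters and scalings, the 4 libraries alone, no trend, a replicate block, each of the 4 libraries compared left out, and edgeR 4.0.16 and DESeq2 1.42.0 on the recovered reads of 7 libraries. The procedure was tested on simulated counts of this comparison (15851 genes in the fit). It called 29.4% of genes changed by 0.5, 93.9% of those changed by 1 and 100% of those changed by 2 on the log2 scale. Of its calls 7.5% were false. The simulation changed only 68, 66 and 66 genes at these sizes, each with a mean of at least 50 reads. Its dispersion was set at 0.01 and not fitted to the data. The data gave 5966 calls, so these rates may not hold for them.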

Additional observations from a re-analysis of the deposited data

How the results depend on the processing

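The number of genes called with IAA, 5966 in limma, went to 3945 without the mean-variance trend and to 3576 with DESeq2, which gave no adjusted p for 1534 genes. Leaving out 1 library gave 4281 to 4772. The number changed at least 2-fold, 680, went to 353 with a pseudocount of 10, to 282 with a mean of at least 50, where fewer low genes were tested, to 448 with DESeq2, and to 654 to 731 without 1 library. The other alternatives kept both counts within 1.5 times, and 0 of the called genes changed sign under any of the 15. Equal totals gave 6665 calls, of which 38.5% were higher, against 51.3%. Samples with the same replicate number did not deviate together (correlations of -0.022 to 0.028), so the numbers do not pair the libraries, and a replicate block gave 6421 calls, 678 of at least 2-fold. The lists whose direction held under all alternatives include the p53, immediate early, cholesterol, cilium, DNA repair, zinc-finger, cytosolic ribosomal protein, NRF2, Wnt, retinoic acid and histone lists. Of the 208 genes named in the text 159 had a value under all 15, of which 132 stayed on their side of the threshold under each, 29 of the other 49 did so where they had a value, and 0 changed sign. Without at least 1 of the 4 libraries, 39 named genes no longer passed (adjusted p of 0.0507 to 0.476 in limma): Ahr, Barx2, Casp8, Cbx2, Cdkn1c, Dll3, Dnaaf1, Dnah11, Dync2li1, Ears2, Fam92a, Fos, Gata6, Gpld1, Gsta3, H1f10, Hist1h2an, Hoxb13, Hspa1b, Iars2, Id3, Junb, Kdr, Notch3, Osgin1, Pars2, Pcgf1, Pdp1, Perp, Pmaip1, Podxl, Scn9a, Sgce, Slc7a11, Snhg8, Spry4, Srebf2, Timp3 and Wars2. Without the mean-variance trend 28 named genes no longer passed, and with DESeq2 23, among which, outside the names above, Esrrb, Fars2, Ldb1, Rfng, Slc16a3, Vim (without the trend) and Lars2 (both) lost their call. Low genes were measured less precisely: the median SE was 0.258 in the lowest of 4 equal groups of protein-coding genes by level and 0.0413 in the highest.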

Other observations

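Some further groups were read the same way. Splicing factors were higher in 33 of 113 and lower in 15, but in 22 and 27 with equal totals. Of the 4 members past 2-fold, Rbm24, a regulator of muscle splicing, stood at 17.6 and 15.5 normalized reads without IAA and 44.1 and 40.7 with IAA, a log2 difference of 1.31 ± 0.29 (limma, adjusted p = 3.2e-04). Rbm46, a germ cell RNA-binding gene, had 37.6 and 37.9 without IAA and 9.53 and 9.90 with IAA, a log2 difference of -1.86 ± 0.34 (limma, adjusted p = 2.2e-05). Lsm11, a component of the U7 particle of histone RNA processing, rose by 1.19 ± 0.08 and Rbm45 fell by 1.12 ± 0.07 (SE). Chaperones of the endoplasmic reticulum were higher in 9 of 29 and lower in 1 (8 and 5 with equal totals), each by under 1.5-fold, with Creld2 at 0.44 ± 0.11 (SE). Aminoacyl-tRNA synthetase genes were higher in 13 of 39 and lower in 5 (11 and 7 with equal totals). Of the lower members, Aars2, Pars2, Ears2 and Fars2 encode mitochondrial enzymes, a grouping noticed after the values were seen, while the mitochondrial Lars2, Sars2, Iars2 and Wars2 rose, so the mitochondrial members split. Aars2 stood at 174 and 184 normalized reads without IAA and 100.1 and 88.0 with IAA, a log2 difference of -0.92 ± 0.13 (limma, adjusted p = 2.6e-07).

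Kinesins, dyneins and tubulins were lower in 16 of 56 and higher in 10 (21 and 9 with equal totals). Dync2li1, a subunit gene of the dynein-2 motor of cilia, stood at -0.56 ± 0.18 (SE). Phosphodiesterase and adenylyl cyclase genes, together with subunits and anchors of protein kinase A and subunits of AMPK, were higher in 13 of 48 and lower in 5 (12 and 13 with equal totals), and the members past 2-fold lay in opposite directions. The cAMP phosphodiesterase Pde4b stood at 62.7 and 51.7 normalized reads without IAA and 762 and 705 with IAA, a log2 difference of 3.66 ± 0.10 (limma, adjusted p = 1.1e-28), and the cGMP phosphodiesterase Pde5a went from 704 ± 32.8 to 256 ± 3.12 normalized reads (SD), a log2 difference of -1.45 ± 0.08 (limma, adjusted p = 5.4e-18). Metalloproteinases and their inhibitors were higher in 8 of 36 and lower in 10 (7 and 11 with equal totals). Timp2 and Timp3, inhibitors of the same family, moved apart, at -1.38 ± 0.26 and 0.78 ± 0.30 (SE), the second not past the threshold with equal totals and overlapping a gene that was lower. Olfactory, vomeronasal and taste receptor genes were higher in 6 of 37 and lower in 3 (6 and 4 with equal totals), mostly on few reads, and near-identical members can share reads.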
